A study of Arabidopsis thaliana with 9 samples.

Results

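The genes described here encode the small subunit of Rubisco, the enzyme's activase, and enzymes of the Calvin cycle (5 genes for 4 enzymes) in Arabidopsis thaliana. They were chosen by name, with earlier results of these data known, and number 10 of the 33323 genes in the deposited tables. They are RBCS1A (AT1G67090), RBCS1B (AT5G38430), RBCS2B (AT5G38420), RBCS3B (AT5G38410), RCA (AT2G39730), PRK (AT1G32060), GAPA1 (AT3G26650), GAPB (AT1G42970), SBPASE (AT3G55800) and HCEF1 (AT3G54050). Their transcripts were measured by RNA-seq of whole rosettes, without roots, in the mutant lines jazD and jazQ and in wild-type Col-0, with 3 libraries each. Each library was made from a pool of about 20 plants aged 23 days, grown at 20 °C with a light period of 16 h and a dark period of 8 h, with no treatment named. The labels name the mutant lines without listing alleles. As background on the lines, JAZ10, JAZ9, JAZ4, JAZ3 and JAZ1 are mutated in jazQ, and jazD has lesions in these and also in JAZ13, JAZ7, JAZ6, JAZ5 and JAZ2. JAZ proteins repress transcription factors that respond to the hormone jasmonate. The accession of jazD is given as Col-0 with an asterisk that the labels do not explain, while that of jazQ is given as Col-0. Each mutant is represented by 1 line.

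Rubisco fixes carbon dioxide onto ribulose bisphosphate in the chloroplast stroma and is built of large subunits encoded in the plastid and small subunits encoded by the nuclear RBCS family. Rubisco activase removes inhibitory sugar phosphates from the active sites, and the remaining enzymes reduce the product to triose phosphate and regenerate the acceptor. In leaves, mesophyll cells carry most of this machinery, and its messages are among the most abundant in a rosette. The plastid-encoded large subunit was not analysed here.

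The 4 RBCS genes are similar copies, those on chromosome 5 most of all, which bears on how reads were divided among them. RBCS1A lies on chromosome 1, while RBCS1B, RBCS2B and RBCS3B lie side by side on chromosome 5, with 0 other tested genes between them. Over the coding sequence, RBCS1A was 89.9%, 90.1% and 87.7% identical to RBCS1B, RBCS2B and RBCS3B. The chromosome 5 copies were 97.3% (RBCS1B and RBCS2B), 94.1% (RBCS1B and RBCS3B) and 94.3% (RBCS2B and RBCS3B) identical to each other. A stretch of 60 coding bases, positions 20 to 79 counted from the first coding base, is printed for each copy to show where a read can tell them apart. All 4 stretches are exonic, on the minus strand of the RefSeq assembly TAIR10.1, at chr1:25049171-25049230 (RBCS1A), chr5:15385077-15385136 (RBCS1B), chr5:15381900-15381959 (RBCS2B) and chr5:15378228-15378287 (RBCS3B). Capitals mark the 16 positions at which the copies are not all alike.
RBCS1A: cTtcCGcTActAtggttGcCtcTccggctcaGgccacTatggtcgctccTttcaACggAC
RBCS1B: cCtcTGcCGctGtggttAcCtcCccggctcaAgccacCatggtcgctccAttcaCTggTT
RBCS2B: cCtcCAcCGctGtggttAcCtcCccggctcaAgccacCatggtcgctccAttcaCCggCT
RBCS3B: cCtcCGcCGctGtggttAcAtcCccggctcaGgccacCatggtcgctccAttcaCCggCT
At 11 of these positions RBCS1A differed from all 3 other copies. Of all runs of 50 bases in the RBCS1A transcript, 1.5% also occurred in another gene's transcripts, against 14.0% for RBCS1B, 21.4% for RBCS2B and 18.4% for RBCS3B. The corresponding share was 0.0% for each of the other 6 genes. Values of the single chromosome 5 copies are therefore uncertain in how they share reads, and their sum is given beside them. The shares use a single RefSeq transcript per gene, of 1268 bases for RBCS1A, 1894 for RBCS1B, 935 for RBCS2B and 1184 for RBCS3B. They depend on these lengths, and the transcript models behind the deposited counts may differ, so the copies are not ranked by them.

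Total expected counts ran from 15370271 to 20730459 per library, and the 10 genes held 2.93 to 4.09% of them. All 10 passed the filter on low counts. The labels were checked on 3 mutated JAZ genes. JAZ1 had 1.91 to 2.50 TPM (a level scaled for gene length and library depth) in jazD and 2.53 to 2.70 TPM in jazQ, against 23.7 to 26.1 TPM in Col-0. JAZ2 had 2.54 to 3.35 TPM in jazD, 29.38 to 49.98 TPM in jazQ and 21.5 to 27.8 TPM in Col-0, and JAZ6 had 11.6 to 13.7, 45.6 to 79.1 and 59.8 to 71.2 TPM in the same order of groups. Among the root markers, the root hair genes RSL4 and EXPA7 were at 0 in all 9 libraries. SCR and SHR, of the same list, were expressed. SCR averaged 8.96 TPM in jazD, 10.4 TPM in jazQ and 12.4 TPM in Col-0, and SHR 7.08, 7.80 and 7.68 TPM in the same order.

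The genes had the same order of mean TPM in jazD, jazQ and Col-0. RBCS1A averaged 18553 ± 1769 TPM in jazD, 22129 ± 1122 TPM in jazQ and 19253 ± 813 TPM in Col-0 (SD, n = 3 each), which made it the second, first and second most abundant of all genes. RBCS3B came next, at 4587 TPM in jazD, 6177 TPM in jazQ and 6017 TPM in Col-0. RCA, RBCS2B and RBCS1B followed, then GAPA1, GAPB, PRK, HCEF1 and SBPASE. Neighbours in this order whose libraries overlapped were RCA and RBCS2B in jazD, and GAPB and PRK in jazQ and in Col-0. SBPASE, the lowest, averaged 431 ± 23.9 TPM in jazD, 560 ± 12.7 TPM in jazQ and 519 ± 20.7 TPM in Col-0.

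**Figure D1:**
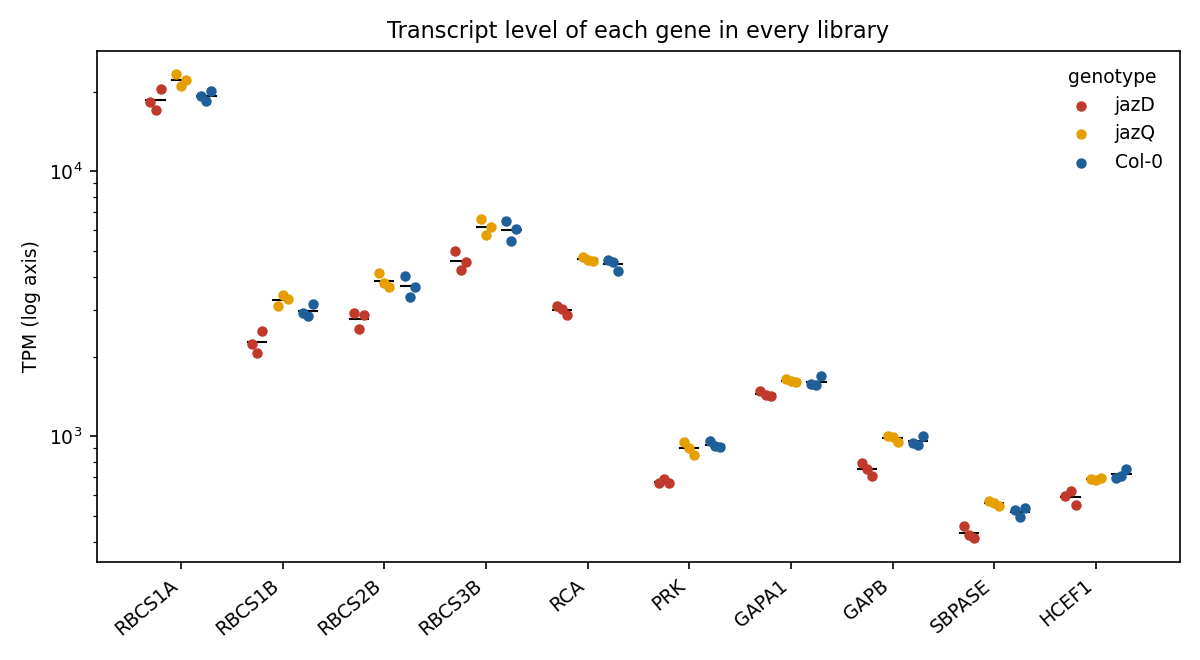
TPM of each of the 10 genes (log axis) in every library of jazD, jazQ and Col-0. Each point is 1 library and each short line the mean of 3. The jazD points lie below all Col-0 points for 9 of the 10 genes, the exception being RBCS1A.

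In jazD against Col-0, messages of the activase, of the 3 RBCS copies on chromosome 5 and of 4 Calvin cycle genes were lower, while RBCS1A and GAPA1 were not called. Of the 10 genes, 8 were called lower and 0 higher at an adjusted p under 0.05 (edgeR quasi-likelihood test, adjusted over the 19405 genes tested), where 12.5% of all genes tested were called lower and 13.3% higher. The median log2 fold change of the 10 was -0.29, against -0.003 for all genes tested. Libraries of jazD lay below all Col-0 libraries in TPM for 9 of the 10, against 30.1% of all genes with a mean of at least 1 TPM. In jazQ against Col-0, 0 of the 10 were called in either direction, where 0.412% of all genes were called lower and 0.861% higher. In TPM, 2 of the 10 (RBCS1A and SBPASE) lay above all Col-0 libraries and 1 (HCEF1) below, against 6.57% and 9.65% of all genes. On scaled counts HCEF1 overlapped Col-0, and RBCS1B lay above it. The count at an unadjusted p under 0.05 (edgeR) was 2, RBCS1A and RBCS1B. By this test RBCS1B ranked 2245 of the 19405 genes, so at least that many genes passed the same threshold. The count of 2 was therefore not read as a change in jazQ. DESeq2's Wald test also called 0 of the 10. In jazD against jazQ, 7 of the 10 were called lower, and 0 higher, against 13.8% and 15% of all genes, and the median log2 fold change of the 10 was -0.34. All 10 lay below jazQ in TPM with no overlap, against 27.5% of all genes. On the scaled counts used for the tests, RBCS1A and HCEF1 overlapped between jazD and jazQ. The jazD and jazQ comparisons with Col-0 share the Col-0 libraries. In pooled rosettes, fewer cells of a type and less RNA per cell cannot be told apart.

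The calls in jazD against Col-0 differed in how far they rested on single libraries. RCA, PRK, GAPB and RBCS1B were called in every fit that left out 1 library. RBCS2B lost its call without jazD replicate 2 (log2 -0.28, adjusted p = 0.0558, edgeR) or Col-0 replicate 1 (-0.26, adjusted p = 0.0573). RBCS3B lost it without jazD replicate 2 (-0.27, adjusted p = 0.0895), jazD replicate 3 (-0.29, 0.0773) or Col-0 replicate 1 (-0.25, 0.0951). SBPASE lost it in 4 of these fits (adjusted p = 0.0988 to 0.145) and HCEF1 in 5 (adjusted p = 0.059 to 0.124). The count of genes called lower was thus 5 without jazD replicate 2 or 3 and 4 without Col-0 replicate 1.

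**Figure D2:**
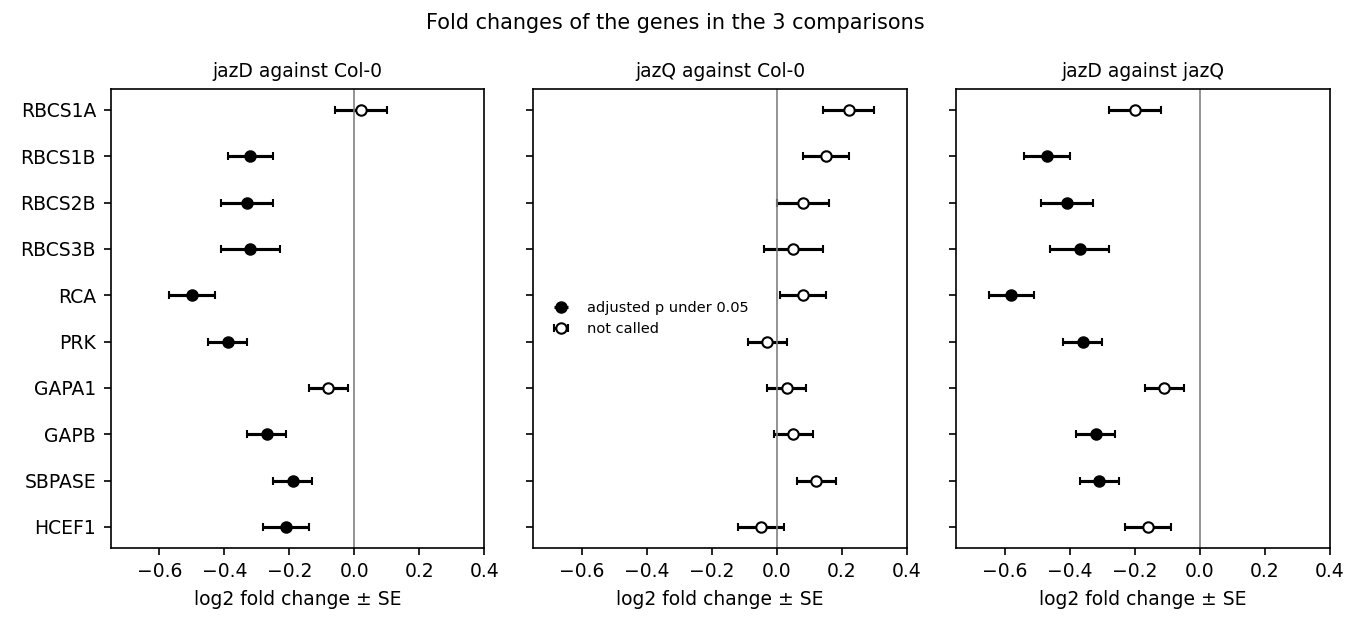
Log2 fold change with standard error (x axis) of each gene (y axis) in jazD against Col-0, jazQ against Col-0 and jazD against jazQ; filled points passed an adjusted p under 0.05. RCA has the lowest value in both comparisons of jazD (-0.50 and -0.58), RBCS1A sits near 0 in jazD against Col-0 (its sign depends on the scaling), and no point is filled for jazQ against Col-0.

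Among the small subunits, the chromosome 5 copies fell in jazD and RBCS1A was not called. RBCS1A had 18213, 16979 and 20467 TPM in jazD, 23302, 21067 and 22018 TPM in jazQ, and 19234, 18449 and 20075 TPM in Col-0. The jazD and Col-0 libraries overlapped, while all jazQ libraries lay above all others in TPM. On the scaled counts used for the tests, jazQ replicate 2 (15840 CPM, counts scaled to library size) lay below jazD replicate 3 (16480.0 CPM). Its log2 fold change was 0.02 ± 0.08 in jazD against Col-0 (95% interval -0.13 to 0.18, adjusted p = 0.883), and this value turned to -0.03 with total counts in place of TMM scaling and to -0.06 on log2 TPM. In jazQ against Col-0 it was 0.22 ± 0.08, with an unadjusted p of 0.0168 and an adjusted p of 0.266. In jazD against jazQ it was -0.20 ± 0.08 (adjusted p = 0.0808), a difference that was called on log2 TPM (-0.26, adjusted p = 0.0173 to 0.0298), with total counts, in the fit blocked on replicate number, and when jazD replicate 3 or jazQ replicate 2 was left out.

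RBCS3B, the most abundant of the chromosome 5 copies, had 4987, 4239 and 4534 TPM in jazD, 6597, 5746 and 6188 TPM in jazQ, and 6510, 5464 and 6077 TPM in Col-0. RBCS2B had 2932, 2531 and 2857 TPM in jazD, 4121, 3783 and 3652 TPM in jazQ, and 4026, 3361 and 3661 TPM in Col-0. RBCS1B had 2224, 2061 and 2497 TPM in jazD, 3092, 3426 and 3299 TPM in jazQ, and 2932, 2844 and 3145 TPM in Col-0. For each of these 3 copies the jazD libraries lay below every jazQ and Col-0 library, and jazQ overlapped Col-0 in TPM. Relative to Col-0, RBCS2B fell by 20.7% in jazD (log2 -0.33 ± 0.08, adjusted p = 0.0106), RBCS1B by 20.0% (-0.32 ± 0.07, adjusted p = 0.00371) and RBCS3B by 19.7% (-0.32 ± 0.09, adjusted p = 0.0205). Relative to jazQ, the log2 fold changes in jazD were -0.47 ± 0.07 for RBCS1B, -0.41 ± 0.08 for RBCS2B and -0.37 ± 0.09 for RBCS3B (adjusted p = 0.000202, 0.00252 and 0.00794).

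Sums over copies do not depend on how reads were divided within them. The 3 chromosome 5 copies together had a log2 fold change of -0.32 ± 0.08 in jazD against Col-0 (adjusted p = 0.00832), 0.08 ± 0.08 in jazQ against Col-0 (0.728) and -0.40 ± 0.08 in jazD against jazQ (0.00175). All 4 copies together gave -0.10 ± 0.08 in jazD against Col-0 (95% interval -0.25 to 0.05, adjusted p = 0.397), 0.17 ± 0.08 in jazQ against Col-0 (0.393) and -0.26 ± 0.08 in jazD against jazQ (0.0197). The last of these calls was lost without jazD replicate 1 or 2 or jazQ replicate 1 (-0.27, -0.21 and -0.21). Of the 20 tested genes nearest to the chromosome 5 copies, 10 on each side, 3 were called higher and 2 lower in jazD against Col-0, where 25.8% of all genes were called in either direction, and their median log2 fold change was -0.03.

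The make-up of the small-subunit pool was compared through the share of RBCS1A. RBCS1A held 64.2, 65.8 and 67.4% of the RBCS TPM in jazD, 62.8, 61.9 and 62.6% in jazQ, and 58.8, 61.3 and 60.9% in Col-0. The 3 groups did not overlap. The mean share was 65.8 ± 1.6% in jazD, 62.4 ± 0.461% in jazQ and 60.3 ± 1.32% in Col-0 (SD, n = 3 each). Each of the 3 differences gave p = 0.1 in an exact two-sided permutation test, the smallest that 3 against 3 libraries allow, and 0.12 after adjustment over 12 such tests.

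**Figure D3:**
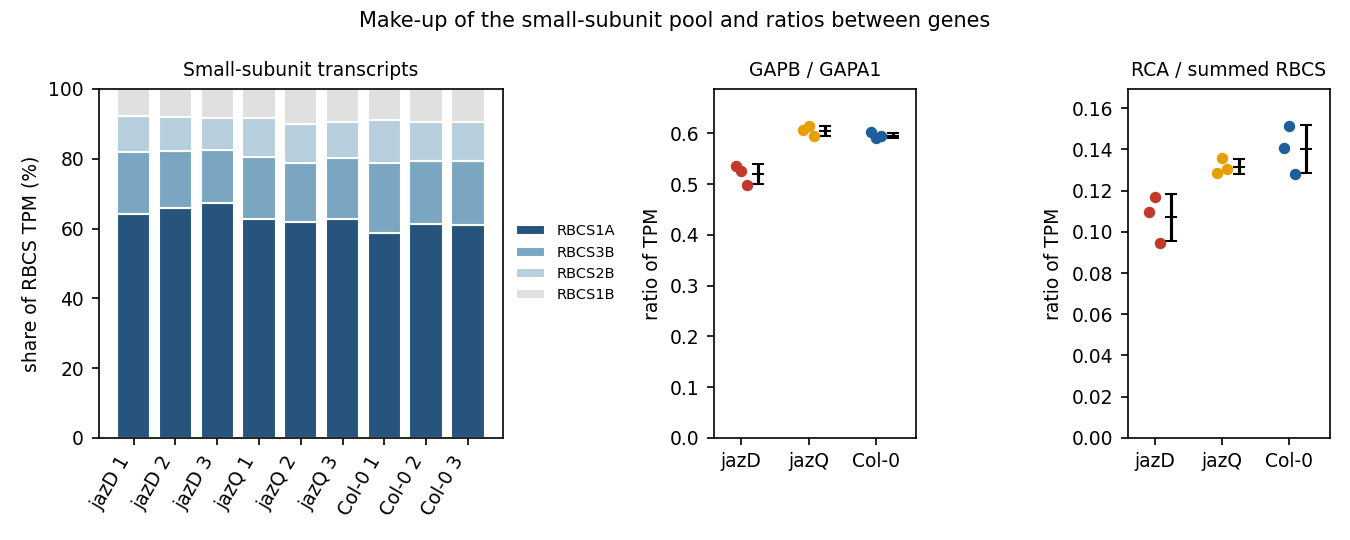
Left, share of each RBCS copy in the summed RBCS TPM (%, stacked bars from 0 to 100) in each library; middle and right, ratio of GAPB to GAPA1 TPM and of RCA to summed RBCS TPM, with points for libraries and bars for mean ± SD, n = 3. The RBCS1A share is 64.2 to 67.4% in jazD and 58.8 to 61.3% in Col-0, and both ratios are lower in jazD than in either other genotype.

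RCA, which encodes the activase, had the lowest log2 fold change of the 10 genes in jazD against Col-0 and in jazD against jazQ. It had 3106, 3018 and 2873 TPM in jazD, 4768, 4627 and 4590 TPM in jazQ, and 4608, 4554 and 4218 TPM in Col-0. All jazD libraries lay below all others, and jazQ overlapped Col-0. RCA fell by 29.2% in jazD relative to Col-0 (log2 -0.50 ± 0.07, adjusted p = 0.000118), and it fell by 32.9% relative to jazQ (-0.58 ± 0.07, adjusted p = 3.31e-05). In jazQ against Col-0 its log2 fold change was 0.08 ± 0.07 (95% interval -0.05 to 0.21, adjusted p = 0.696). The ratio of RCA to summed RBCS TPM was 0.107 ± 0.0114 in jazD, 0.132 ± 0.00388 in jazQ and 0.14 ± 0.0116 in Col-0 (SD, n = 3 each). The jazD ratios did not overlap those of jazQ or Col-0 (exact permutation p = 0.1 each, 0.12 adjusted), while jazQ and Col-0 did (exact permutation p = 0.4).

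PRK, phosphoribulokinase, makes the carbon dioxide acceptor that Rubisco uses. It had 664, 692 and 667 TPM in jazD, 955, 901 and 852 TPM in jazQ, and 958, 921 and 909 TPM in Col-0. The jazD libraries lay well below the others, which overlapped each other. PRK fell by 23.6% in jazD relative to Col-0 (log2 -0.39 ± 0.06, adjusted p = 0.000633), and it fell by 22.1% relative to jazQ (-0.36 ± 0.06, adjusted p = 0.00101).

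GAPA1 and GAPB encode the A and B subunits of chloroplast glyceraldehyde 3-phosphate dehydrogenase, the reductive step of the cycle. GAPB had 796, 752 and 707 TPM in jazD, 1000.1, 996 and 949.5 TPM in jazQ, and 945, 926 and 1001 TPM in Col-0. GAPA1 had 1486, 1430 and 1419 TPM in jazD, 1647, 1623 and 1597 TPM in jazQ, and 1569.5, 1567 and 1684 TPM in Col-0. For both genes jazD lay below the other genotypes with no overlap, by a wider margin for GAPB. GAPB fell by 17.2% in jazD relative to Col-0 (log2 -0.27 ± 0.06, adjusted p = 0.00699), and its log2 fold change against jazQ was -0.32 ± 0.06 (adjusted p = 0.00209). GAPA1 had log2 fold changes of -0.08 ± 0.06 against Col-0 (95% interval -0.19 to 0.04, adjusted p = 0.369) and -0.11 ± 0.06 against jazQ (adjusted p = 0.197). On log2 TPM, which was not scaled further between libraries, GAPA1 was called lower in both comparisons (-0.15 and -0.17). The median over all genes on log2(TPM + 1) was itself -0.069 against Col-0 and -0.059 against jazQ. In the main fit these medians were -0.003 and -0.005. The ratio of GAPB to GAPA1 TPM was 0.520 ± 0.0195 in jazD, 0.605 ± 0.00971 in jazQ and 0.596 ± 0.0057 in Col-0 (SD, n = 3 each). The jazD ratios lay below all others (exact permutation p = 0.1 in both comparisons, 0.12 adjusted), and jazQ overlapped Col-0 (exact permutation p = 0.2).

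SBPASE, sedoheptulose-1,7-bisphosphatase, and HCEF1, the chloroplast fructose-1,6-bisphosphatase, act in regeneration of the acceptor. SBPASE had 458, 424 and 412 TPM in jazD, 571, 561 and 546 TPM in jazQ, and 526, 496 and 535 TPM in Col-0. HCEF1 had 596, 623 and 549 TPM in jazD, 688, 682 and 698 TPM in jazQ, and 698, 707 and 751 TPM in Col-0. In jazD both lay below the other genotypes, and in jazQ all SBPASE libraries lay above Col-0 and all HCEF1 libraries below it in TPM. SBPASE fell by 12.5% in jazD relative to Col-0 (log2 -0.19 ± 0.06, adjusted p = 0.0389), and its log2 fold change against jazQ was -0.31 ± 0.06 (adjusted p = 0.00221). HCEF1 fell by 13.6% relative to Col-0 (-0.21 ± 0.07, adjusted p = 0.031), and its value against jazQ, -0.16 ± 0.07, was not called (adjusted p = 0.0759) except with total counts or on log2 TPM. In jazQ against Col-0 the values were 0.12 ± 0.06 for SBPASE and -0.05 ± 0.07 for HCEF1 (adjusted p = 0.466 and 0.836).

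Promoter windows of 250 bases before the RefSeq start are printed for 3 genes called lower in jazD against Col-0. They are 1 from each role: small subunit, activase and acceptor regeneration. The windows lie at chr5:15382072-15382321 on the minus strand (RBCS2B), chr2:16573693-16573942 on the minus strand (RCA) and chr1:11531949-11532198 on the plus strand (PRK) of TAIR10.1. Capitals mark matches to 3 motifs searched on both strands. The first is the G-box core CACGTG, which reads the same on either strand. The second is the I-box core GATAAG. On the opposite strand it is read as CTTATC. The third is the CCAAT box, whose opposite strand reads ATTGG. The G-box and I-box are known from light-responsive plant promoters.
RBCS2B: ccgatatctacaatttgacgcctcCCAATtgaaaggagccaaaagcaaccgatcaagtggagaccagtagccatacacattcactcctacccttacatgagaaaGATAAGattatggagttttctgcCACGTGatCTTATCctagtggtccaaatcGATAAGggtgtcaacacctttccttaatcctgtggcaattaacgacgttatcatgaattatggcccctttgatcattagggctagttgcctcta
RCA: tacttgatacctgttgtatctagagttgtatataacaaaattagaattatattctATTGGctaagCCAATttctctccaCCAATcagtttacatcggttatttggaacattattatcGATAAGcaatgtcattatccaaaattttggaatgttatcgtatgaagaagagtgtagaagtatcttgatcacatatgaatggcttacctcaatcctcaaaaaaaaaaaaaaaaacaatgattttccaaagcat
PRK: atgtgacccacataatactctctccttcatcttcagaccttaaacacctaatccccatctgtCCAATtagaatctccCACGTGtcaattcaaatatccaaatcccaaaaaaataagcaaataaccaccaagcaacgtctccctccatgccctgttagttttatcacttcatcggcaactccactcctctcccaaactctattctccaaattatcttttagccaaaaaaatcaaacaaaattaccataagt
The RBCS2B window holds 1 G-box, 118 to 123 bases before the start, between I-box matches on both sides, while the RCA window holds an I-box and no G-box and the PRK window a G-box and no I-box. Of the windows of the 10 genes, 3 had a G-box (RBCS2B, PRK and HCEF1), where 6.5% of 27443 promoters of the same length had one. An I-box was in 3 (RBCS2B, RCA and HCEF1), against 12.3% of promoters, and a CCAAT box in 7, against 46.0%. The windows of RBCS1A, RBCS1B and SBPASE held none of the 3 motifs, and that of RBCS3B only a CCAAT box. RBCS2B was thus the only small-subunit copy with a G-box or I-box in the window searched. Its window does not stand for RBCS1B and RBCS3B, which were also called lower. RefSeq starts lie 93 (RBCS2B), 347 (RCA) and 469 (PRK) bases before the first coding base. For the genes without a match this distance is 418 (RBCS1A), 165 (RBCS1B) and 346 (SBPASE) bases. For RBCS3B it is 336 bases, so the windows of the RBCS copies lie at different distances from the coding sequence. The bases between were not searched, so a motif nearer the coding sequence would have been missed. The motifs did not overlap each other in the printed windows.

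The remaining enzymes of the cycle and its partners were counted in the same fit. Of 12 further Calvin cycle enzymes, 3 were called lower and 0 higher in jazD against Col-0, with a median log2 fold change of -0.09, where 12.5% of all genes were called lower and 13.3% higher. The 3 were FBA2 (plastid aldolase, -0.30 ± 0.08), GAPA-2 (a further A subunit, -0.22 ± 0.06) and AT1G56190 (phosphoglycerate kinase, -0.24 ± 0.06). The A-subunit copies thus gave -0.22 for GAPA-2 and -0.08 for GAPA1. In jazD against jazQ, 5 of the 12 were called lower and 1, the aldolase FBA3, higher (0.32 ± 0.09), against 13.8% and 15% of all genes. CP12-2, a small protein that binds PRK and glyceraldehyde 3-phosphate dehydrogenase, rose in jazD against Col-0, with 470 ± 18.7 TPM in jazD and 403 ± 4.67 TPM in Col-0 (SD, n = 3 each; log2 0.30 ± 0.07, adjusted p = 0.00668), while CP12-1 (-0.18 ± 0.07) and CP12-3 (0.19 ± 0.19) were not called. Of 11 genes for Rubisco assembly and chloroplast chaperonins, 0 were called in jazD against Col-0, with a median of -0.04, and the 3 with the smallest p were AT5G28500 (-0.13 ± 0.07), Cpn60beta2 (-0.10 ± 0.05) and Cpn60beta3 (-0.10 ± 0.07). Cpn60beta2 was called lower against jazQ (-0.26 ± 0.05).

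Light activates several of these enzymes through thioredoxins, and 2 of 9 genes of that system were called lower in jazD against Col-0. The share of all genes called lower in this comparison, 12.5%, is the background for this count and for those that follow, and in lists this short a count of 1 or 2 says nothing about the list. The 2 genes were TRXF1 (-0.32 ± 0.06) and TRXF2 (-0.22 ± 0.07), the f-type thioredoxins, while the m-type THM1 was not called (-0.13 ± 0.05). Photorespiration recycles the product of Rubisco's reaction with oxygen, and 12 of its 15 listed genes were called lower in jazD against Col-0, with a median of -0.19, and 0 higher. The 3 with the smallest p were HPR (hydroxypyruvate reductase, -0.44 ± 0.05), GLDP2 (-0.57 ± 0.08) and GLDP1 (-0.40 ± 0.07), the last 2 encoding the P protein of glycine decarboxylase. The count against jazQ was also 12 of 15. Of 3 carbonic anhydrases, CA1 (-0.42 ± 0.11) and CA2 (-0.39 ± 0.08) were called lower and CA4 (-0.17 ± 0.07) was not. Downstream, 2 of 7 genes of triose phosphate use were called lower, SPS1F (sucrose phosphate synthase, -0.30 ± 0.06) and SS1 (a starch synthase, -0.27 ± 0.05). Of 6 cytosolic glycolytic counterparts, GAPC2, a gene for cytosolic glyceraldehyde 3-phosphate dehydrogenase, was called lower (-0.38 ± 0.07). GAPC1, a further gene for this enzyme, was not called (-0.20 ± 0.08). Of 6 transcription factors known to act on photosynthesis genes, GLK2 (-0.50 ± 0.08) and GNC (-0.51 ± 0.11) were called lower, and CGA1 was not (-0.68 ± 0.23, adjusted p = 0.0507). The others were not called and went both ways, with HYH at -0.48 ± 0.20, GPRI1 at 0.23 ± 0.11 and HY5 at 0.51 ± 0.22. In jazQ against Col-0, 0 genes of any of these lists were called (edgeR), where 1.27% of all genes were.

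**Figure D4:**
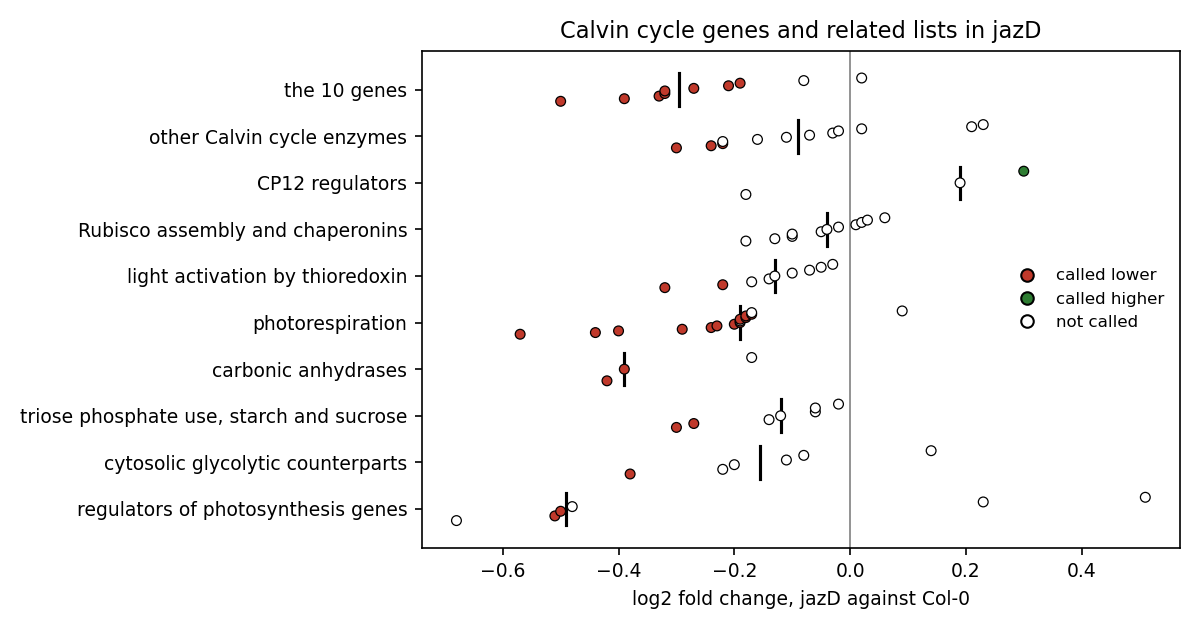
Log2 fold change in jazD against Col-0 (x axis) of the 10 genes and of 9 further lists (y axis); each point is a gene, filled when called, and each bar a list's median. The 10 genes have a median of -0.29, the other Calvin cycle enzymes -0.09, photorespiration -0.19 and Rubisco assembly and chaperonins -0.04.

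Over the 9 libraries, which fall into 3 genotypes, most of the 10 genes varied together and RBCS1A stood apart. Pearson's r of log2 CPM was 0.97 for RBCS2B with RBCS3B, which share reads, 0.96 for RCA with PRK and 0.96 for GAPB with SBPASE. For RBCS1A it ran from 0.08 with HCEF1 to 0.62 with RBCS1B. In a search of 11734 genes averaging 10 CPM or more with a count in every library, those most like RCA were UMAMIT17 (r = 0.994), AT1G74470 (0.988), AT1G76110 (0.987), GLDP2 (0.987) and GS2, the chloroplast glutamine synthetase (0.985). Their log2 fold changes in jazD against Col-0 were -0.77 ± 0.11, -0.30 ± 0.05, -0.48 ± 0.07, -0.57 ± 0.08 and -0.35 ± 0.06 in that order. The genes most like RBCS1A were ESP (the locus AT4G22970, 0.945), SCE1 (0.924), EDA3 (0.913), AT1G67865 (0.902) and AT1G53233 (0.896). Of these 5, 0 were called in jazD against Col-0. Genes picked for likeness to RCA or RBCS1A over these libraries had to share its pattern between genotypes, so these values are a description of the choice.

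Markers of leaf cell types are given beside these falls, and their part in them was not tested. The mesophyll markers CAB1, CAB3 and LHB1B1, light-harvesting genes of the same cells, summed to 22845 to 26792 CPM in jazD, 24170 to 29350 CPM in jazQ and 27055 to 29593 CPM in Col-0. Of these, LHB1B1 was called lower in jazD against Col-0 (-0.44 ± 0.10), while CAB3 (-0.22 ± 0.08) and CAB1 (-0.13 ± 0.08) were not. The 5 phloem and vascular markers summed to 390 to 435 CPM in jazD, 474 to 518 CPM in jazQ and 453 to 523 CPM in Col-0. Of these, 2 were called lower in jazD against Col-0, AT1G62500 (-0.68 ± 0.10) and AHA3 (-0.30 ± 0.07). The written plan named SUC2, APL, AHA3 and HB-8 for these cells and not AT1G62500, whose use as such a marker was not checked. The 5 guard cell markers summed to 52.0 to 58.0 CPM in jazD, 62.9 to 69.8 CPM in jazQ and 52.8 to 58.7 CPM in Col-0. Single guard cell genes went opposite ways in jazD against Col-0, with KAT1 called lower (-0.68 ± 0.12) and FAMA higher (0.39 ± 0.10). FAMA was also called higher in jazQ against Col-0 (0.49 ± 0.10, adjusted p = 0.0225, edgeR). The 4 epidermis markers summed to 456 to 471 CPM in jazD, 433 to 469 CPM in jazQ and 440 to 464 CPM in Col-0, with CUT1 called higher (0.38 ± 0.09) and PDF2 lower (-0.24 ± 0.08) in jazD against Col-0. The 5 trichome markers summed to 20.8 to 24.8 CPM in jazD, 24.5 to 28.7 CPM in jazQ and 19.9 to 22.7 CPM in Col-0. Of these, ETC2 was called lower (-1.02 ± 0.18) and GL3 (1.34 ± 0.41) and GL2 (0.31 ± 0.11) higher in jazD against Col-0. GL2 was also called higher in jazQ against Col-0 (0.51 ± 0.10, adjusted p = 0.0304, edgeR). The 6 root markers summed to 27.0 to 31.1 CPM in jazD, 29.7 to 35.1 CPM in jazQ and 33.4 to 38.0 CPM in Col-0. Of these, 4 were below 1 CPM in every library, and SCR was called lower in jazD against Col-0 (-0.39 ± 0.10).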

How the data were processed

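The authors deposited expected counts per gene from RSEM 1.2.25 on TAIR10, per the submitters' processing notes, and a second table of TPM levels, per the file headers. Expected counts split ambiguous reads between genes, and 69.11 to 72.61% of a library's nonzero values were whole. The aligner and the strandedness are unstated here, so antisense reads cannot be told apart. RNA integrity scores were 7.0 or more, and the labels call the replicates of a genotype independent. Groups and replicate numbers came from the sample titles.

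Rounded counts entered edgeR 4.0.16 (R 4.3.3; filterByExpr, minimum count 10; TMM; robust quasi-likelihood fit of all 9 libraries; Benjamini-Hochberg adjustment over 19405 genes, called under 0.05). Fold changes are log2 ± standard error, and 95% intervals use 1.96 standard errors. Ratios and shares were tested by exact permutation. On simulated data the same step was checked for recovery of known changes. Alternatives were DESeq2 1.42.0 (size factors, Wald test), total counts, limma 3.58.1 (voom, and log2 TPM with pseudocounts of 1 and 0.1), other filters, only the groups compared, the replicate block and leaving out each library. Summing the 3 chromosome 5 copies was added after seeing the data.

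The 10 genes and all lists were chosen with earlier results of these data known. Named are the 10 genes and, per list, up to 3 genes with the smallest p in jazD against Col-0 and up to 2 in each other comparison. Of these, those that bear on the text are given. FBA3, HYH, GPRI1 and HY5 were chosen after their values were seen. Likeness used the 5 highest Pearson r. Sequences came from the RefSeq assembly TAIR10.1 by locus identifier, since the files give no coordinates; coding sequences were aligned with mafft 7.526. Reference names matched 32835 of 33323 identifiers.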

Additional observations from a re-analysis of the deposited data

How the results depend on the processing

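The numbers of calls among the 10 genes held within 1.5 times under every alternative other than leaving out a library. Leaving out 1 library gave 4 to 8 genes lower in jazD against Col-0 and 7 to 8 in jazD against jazQ. Blocked on replicate number, 8, 0 and 8 genes were lower in jazD against Col-0, jazQ against Col-0 and jazD against jazQ. Whether the numbers mark a pairing is not given by the labels. Deviations from group means correlated at 0.01 to 0.31 between same-numbered libraries, above 0.1 in 6 of 9 pairs, and at -0.25 to 0.09 between libraries of different number. As a hint from the data, libraries correlated best with their own number in each other group, except Col-0 replicate 2 and jazQ replicate 2, each set against the other's group. Over all genes in jazQ against Col-0, 167 were called higher and 80 lower. These became 315 and 257 with the block, 107 higher on log2(TPM + 1) without a filter, 143 lower with the Wald test and 49 lower with only the groups compared. Leaving out 1 library gave 93 to 194 higher and 43 to 173 lower. Summed RBCS in jazD against jazQ ran from -0.319 to -0.209 when 1 library was left out.

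Values near 0 changed sign. RBCS1A, jazD against Col-0, became -0.027 with total counts, -0.057 on log2(TPM + 1) with or without a filter and on log2(TPM + 0.1), -0.04 without jazD replicate 3 and -0.001 without Col-0 replicate 2, in a range up to 0.075 when 1 library was left out. In jazQ against Col-0, RBCS3B became -0.017 without jazQ replicate 1 and -0.006 without Col-0 replicate 2 (up to 0.131 over such fits), PRK 0.003 and 0.005 without jazQ replicate 2 or 3 (down to -0.092), and GAPA1 -0.004 without jazQ replicate 1 (up to 0.058). Of all genes called in jazD against Col-0, 51.5% were higher, against 40.7% with total counts and 35.6%, 35.3% and 38.9% on log2 TPM with a pseudocount of 1, of 0.1, and of 1 with no filter. In jazD against jazQ it was 52.1%, against 39.7%, 39.5% and 42.7% on log2 TPM, and in jazQ against Col-0 67.6%, against 55.1% with the block and 57.8% on log2(TPM + 1) without a filter. The median log2 fold change over all genes in jazD against Col-0 was -0.003 in the main fit and -0.051 with total counts. On log2 TPM it was -0.069, -0.076 and -0.035 in the same order of settings. In jazD against jazQ the median was -0.005 in the main fit, -0.041 with total counts and -0.059, -0.065 and -0.026 on log2 TPM. The cause of these shifts was not tested. With 3 libraries per group, exact permutation tests cannot go below 0.1.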
